A study of Zea mays with 6 samples.

Results

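The C4 mesophyll enzymes described here are 5 genes of the 45953 features in a maize leaf count table. They were chosen by gene identifier, not by any measured value, though earlier results of these data were known. Zm00001d046170 is pep1, for phosphoenolpyruvate (PEP) carboxylase, Zm00001d038163 is the gene for pyruvate phosphate dikinase (PPDK), and Zm00001d031899 is mdh6, for NADP-malate dehydrogenase. Zm00001d044099 and Zm00001d044096 are carbonic anhydrase genes. All 5 had counts in every library and passed the filter on low counts.

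Messenger RNA was selected with poly-T beads from leaves of maize seedlings that were 2 weeks old and sequenced in 6 libraries. The control group, labelled WT, was the inbred line KN5585 (n = 3), and the other group, labelled PP2CKO, was a genome-edited line in the KN5585 background in which ZmPP2C45, a gene for a protein phosphatase 2C, was knocked out (n = 3). The labels name no treatment of either line and do not say how many independent edited lines or plants the PP2CKO libraries come from, and the replicates may be technical, in which case p-values cover that spread alone. ZmPP2C45 itself was not analysed here by name, so the knockout label was not checked on its transcript. Library totals were 15923668 to 16368195 counts in WT and 16314657 to 20502449 in PP2CKO.

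In maize, carbon is fixed first in leaf mesophyll cells and then again in bundle sheath cells. Carbonic anhydrase turns CO2 into bicarbonate, PEP carboxylase joins bicarbonate to PEP to form oxaloacetate, and NADP-malate dehydrogenase reduces oxaloacetate to malate in the mesophyll chloroplast. Malate moves to the bundle sheath, where it gives up its CO2 to Rubisco, and the pyruvate that returns is converted back to PEP by PPDK. Transcripts of these enzymes are highly abundant in maize leaf, and their genes are expressed mainly in the mesophyll.

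Of the 5 genes, the carbonic anhydrase Zm00001d044099 rose about 2-fold in PP2CKO, and no other gene passed the test in either direction. The rise was 2.09-fold, with a 95% interval of 1.604 to 2.73 (quasi-likelihood test of edgeR, adjusted p = 0.00499 by Benjamini-Hochberg over all tested features). Before adjustment, the same edgeR fit likewise put this gene alone below the 0.05 bound. DESeq2 and limma voom also called it after adjustment, and put Zm00001d044096 below the unadjusted bound without calling it. Some edgeR alternatives did so too, among them no filter, thinning to the smallest total and a replicate block. Under library size alone edgeR put PPDK below that bound, and without WT replicate 1 it put pep1 there, again without a call. One call in 5 genes stands against 7.23% of the 21206 tested features called in either direction, 5.15% higher and 2.08% lower. Deeply counted features were called more often: among the 272 features with a mean at least as high as that of Zm00001d044096, the least counted of the 5, 25.4% were called, 22.1% higher and 3.31% lower. At that depth, 1 call in 5 is close to the background. The median log2 fold change of the 5 genes was 0.23, against -0.01 over all tested features and 0.33 over the 272. In RNA from whole leaf, a difference in the number of mesophyll cells and one in the RNA per cell cannot be told apart.

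**Figure D1:**
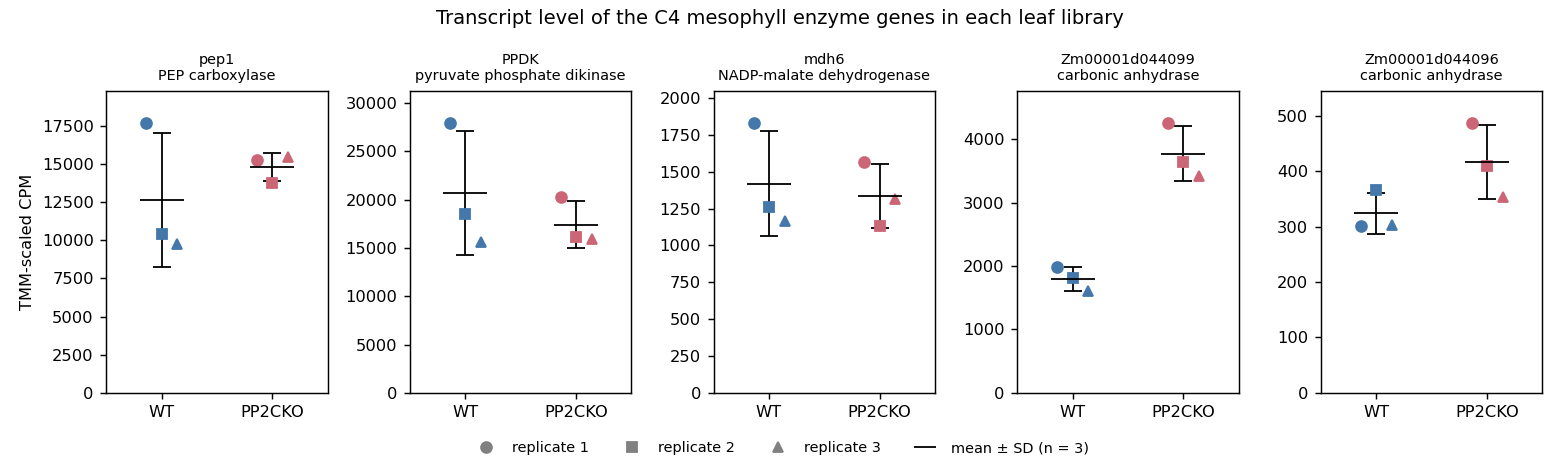
TMM-scaled read counts (CPM, vertical axes from 0, a separate scale for each gene) in each of the 3 WT and 3 PP2CKO libraries, with the mean and SD of each line. The lines are apart for carbonic anhydrase Zm00001d044099 alone, where the highest WT library is at 1984 and the lowest PP2CKO library at 3425; WT replicate 1 stands above the other WT libraries for pep1, PPDK and mdh6.

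Levels are given as CPM, counts relative to a common library total, after scaling by the trimmed mean of M values (TMM), which sets the bulk of genes equal between libraries. CPM is not corrected for transcript length, so levels of different genes are not ranked against each other. Carbonic anhydrase Zm00001d044099 was at 1984, 1816 and 1609 CPM in WT replicates 1 to 3. In PP2CKO replicates 1 to 3 it was at 4255, 3644 and 3425 CPM. Every PP2CKO library was thus above every WT library, and the ranges did not overlap. The WT mean was 1803 ± 188 CPM and the PP2CKO mean 3774 ± 430 (SD, n = 3 per line). The log2 fold change was 1.07 ± 0.18 (SE). Lines that do not overlap in TMM-scaled level were common, at 28.2% of all tested features and 56.6% of the 272 deeply counted ones.

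The other carbonic anhydrase, Zm00001d044096, was at 301, 367 and 303 CPM in the 3 WT libraries. It was at 486, 409 and 353 CPM in the PP2CKO libraries. The lines overlapped, since WT replicate 2 was above PP2CKO replicate 3. Means were 324 ± 37.4 and 416 ± 66.8 CPM (SD, n = 3 each), a log2 fold change of 0.36 with a 95% interval of -0.00035 to 0.73 (edgeR adjusted p = 0.216). That interval reaches from no difference to 1.65-fold higher in PP2CKO.

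These 2 carbonic anhydrase identifiers are separated by 2 others, Zm00001d044097 and Zm00001d044098, each with 0 counts in all libraries. Carbonic anhydrase genes of maize include close copies, and reads shared between copies could be assigned to either identifier, so the split between them is less certain than their sum. Added together, the pair averaged 2127 ± 192 CPM in WT against 4191 ± 496 in PP2CKO (SD, n = 3 per line). The summed row rose 1.97-fold in PP2CKO (95% interval 1.51 to 2.57, edgeR adjusted p = 0.00742). The split of the pair's counts is given as a description. Zm00001d044096 held 13.2%, 16.8% and 15.9% of the pair's counts in WT replicates 1 to 3, and 10.3%, 10.1% and 9.35% in PP2CKO. All 3 PP2CKO shares were below all WT shares (15.3% ± 1.89 against 9.90% ± 0.480, SD, n = 3 each; exact two-sided permutation p = 0.1). No comparison of 3 against 3 libraries can give a smaller p. Gaps of this kind were common: over all 36856 pairs of the 272 deeply counted features, the within-library ratio of 56.1% did not overlap between the lines either.

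PEP carboxylase, which makes the first C4 acid, varied more among the WT libraries than between the lines. Its gene pep1 (Zm00001d046170) was at 17683 CPM in WT replicate 1 and at 10429.9 and 9747 CPM in the other two. The PP2CKO libraries lay at 15288, 13768 and 15451 CPM. All 3 PP2CKO values fell inside the WT range, between WT replicate 1 and the other WT libraries. The means were 12620.0 ± 4398 and 14836 ± 928 CPM (SD, n = 3 each). The log2 fold change of 0.23 had a 95% interval of -0.29 to 0.76 (edgeR adjusted p = 0.608). It was 0.55 when WT replicate 1 was left out (95% interval 0.19 to 0.91, edgeR adjusted p = 0.105), still not called.

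NADP-malate dehydrogenase, which makes malate for export to the bundle sheath, was likewise highest in WT replicate 1. Its gene mdh6 (Zm00001d031899) was at 1829, 1260.2 and 1169 CPM in WT replicates 1 to 3. PP2CKO values were 1566, 1129 and 1314 CPM, and the lines overlapped. The means were 1419 ± 358 and 1336 ± 219 CPM (SD, n = 3 each), with a log2 fold change of -0.09 and a 95% interval of -0.53 to 0.36 (edgeR adjusted p = 0.839). The sign turned when WT replicate 1 was left out, to 0.13 (edgeR adjusted p = 0.755), and without PP2CKO replicate 2 it was 0.02 (edgeR adjusted p = 0.978).

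PPDK, which regenerates the CO2 acceptor PEP, was not called under either scaling. Zm00001d038163 was at 27913, 18529 and 15661 CPM in WT replicates 1 to 3. It was at 20236, 16087 and 15929 CPM in PP2CKO, inside the WT range. The means were 20701 ± 6408 and 17417 ± 2442 CPM (SD, n = 3 each), and the log2 fold change was -0.25 with a 95% interval of -0.78 to 0.28 (edgeR adjusted p = 0.580). When WT replicate 1 was left out it was 0.02 (95% interval -0.38 to 0.42, edgeR adjusted p = 0.969). In maize this gene gives both a chloroplast and a cytosolic transcript from separate promoters, and a count per gene does not part them.

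The spread among WT libraries was wide for the same 3 genes. The coefficient of variation in WT was 34.9% for pep1, 31.0% for PPDK and 25.2% for mdh6, against a median of 16.03% and a 90th percentile of 26.5% over the 272 deeply counted features. The carbonic anhydrases varied by 10.4% (Zm00001d044099) and 11.5% (Zm00001d044096) in WT. In PP2CKO the 5 genes varied by 6.26% (pep1) to 16.4% (mdh6), against a median of 11.6%. WT replicate 1 exceeded the mean of the other WT libraries 1.75-fold for pep1, 1.63-fold for PPDK and 1.51-fold for mdh6. For the carbonic anhydrases the same ratio was 1.16 (Zm00001d044099) and 0.898 (Zm00001d044096). That library was high in general among deeply counted features, with a median log2 difference from the other WT libraries of 0.26 and a 95th percentile of 0.66. pep1, at 0.81, and PPDK, at 0.71, lay above that percentile, and mdh6, at 0.59, below it. In PP2CKO, too, replicate 1 was the highest library for PPDK and mdh6, and also for the carbonic anhydrases, though not for pep1.

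**Figure D2:**
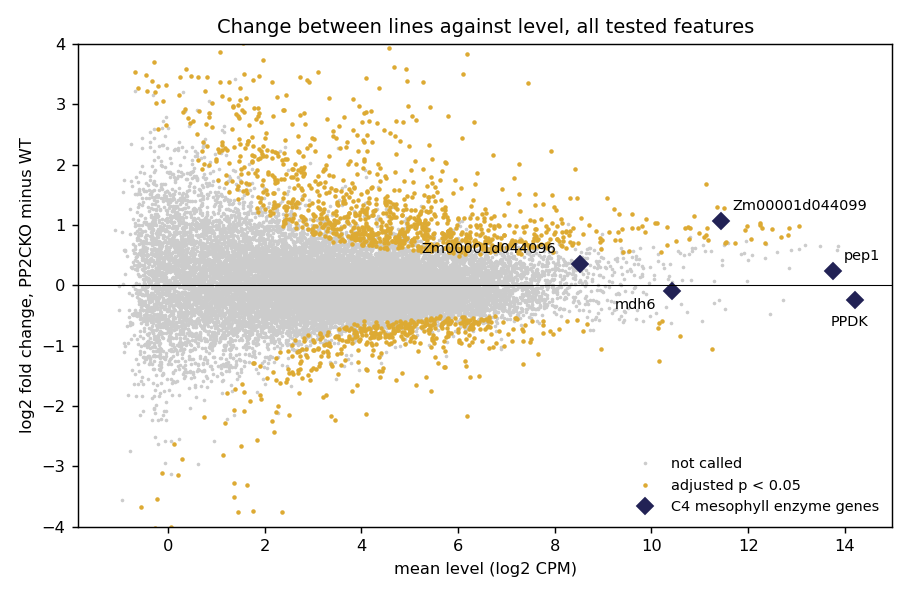
Log2 fold change (PP2CKO minus WT, vertical axis) against mean level (log2 CPM, horizontal axis) for all 21206 tested features under TMM scaling, except 30 that lie beyond the vertical limits of 4. Features with an adjusted p below 0.05 are in yellow and the 5 C4 mesophyll genes are diamonds; Zm00001d044099 is at 1.07, while pep1, PPDK, mdh6 and Zm00001d044096 lie between -0.25 and 0.36.

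Scaling by library size alone, which takes each gene as a share of all counts, shifted all 5 genes downward in PP2CKO. Over all tested features the median log2 fold change moved from -0.01 to -0.23, and 10.8% were called, 3.2% higher and 7.57% lower. Of the 272 deeply counted features 37.1% were called, 20.6% higher and 16.5% lower. Zm00001d044099 was still called higher, at a log2 fold change of 0.85 ± 0.12 (SE) and an edgeR adjusted p of 0.00149. PPDK was at -0.45, with a 95% interval of -0.78 to -0.13 that leaves out 0 and an adjusted p of 0.0655, short of the threshold. Without WT replicate 1, again by library size, PPDK was at -0.25 (edgeR adjusted p = 0.175). The other 3 genes were not called, at 0.04 for pep1, -0.29 for mdh6 and 0.13 for Zm00001d044096 (edgeR adjusted p of 0.898, 0.218 and 0.589).

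As a share of the unscaled library, PPDK took 2.78%, 2.02% and 1.81% of counts in WT and 1.76%, 1.50% and 1.56% in PP2CKO. The lines did not overlap on this scale (exact two-sided permutation p = 0.1, the smallest that 3 against 3 libraries allow), whereas they overlapped after TMM. On this unscaled scale 33.7% of all tested features and 58.8% of the 272 deeply counted ones did not overlap. The log2 ratio of PPDK's mean shares was -0.45, and -0.25 without WT replicate 1. Zm00001d044099 took 0.194% ± 0.00716 of counts in WT and 0.349% ± 0.0181 in PP2CKO (SD, n = 3 each), also without overlap. pep1 took 1.34% ± 0.363 and 1.38% ± 0.123. Together the 5 genes held 4.95%, 3.54% and 3.29% of all counts in the WT libraries and 3.63%, 3.28% and 3.58% in PP2CKO. Apart from WT replicate 1, the libraries of both lines thus gave a similar part of their reads to the 5 genes. The 100 most counted features took 28.7 to 35.0% of WT counts and 36.9 to 40.2% of PP2CKO counts, and the TMM factors were 0.995 to 1.15 in WT and 0.869 to 0.982 in PP2CKO. Both measures parted the lines without overlap. With the features among those 100, the 5 genes apart, left out of the total, the log2 ratio of PPDK's mean shares was -0.31. Its exact two-sided permutation p was 0.2, no longer the smallest possible, whereas Zm00001d044099 stayed at p = 0.1 with 0.99. Scaled by library size without the 100 features, edgeR put PPDK at -0.32 (adjusted p = 0.360). Beyond this, the part of both measures in the differences was not tested.

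**Figure D3:**
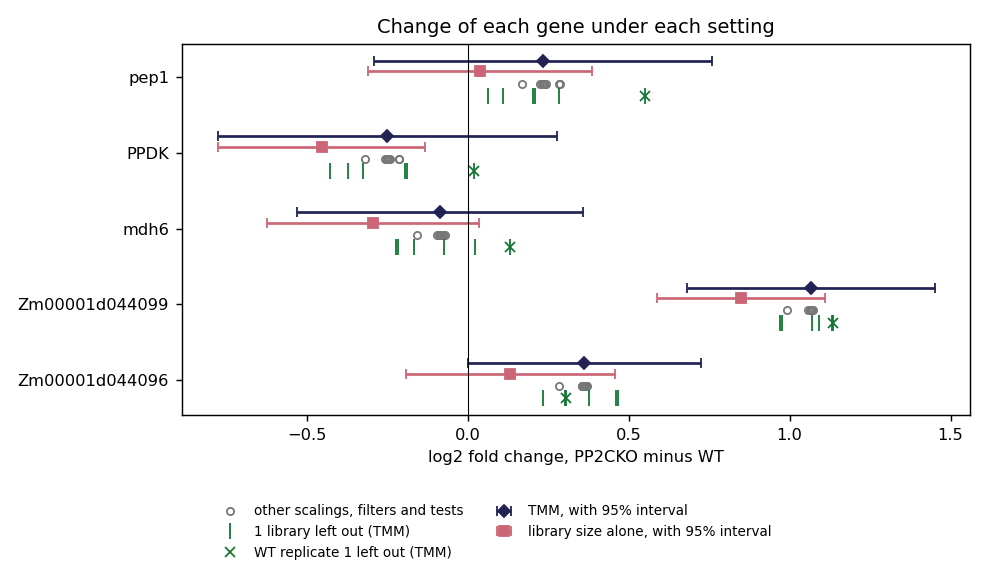
Log2 fold change (PP2CKO minus WT, horizontal axis) of each of the 5 genes with its 95% interval under TMM and under library size alone, and as points under the other scalings, filters and tests and with 1 library left out. Zm00001d044099 stays between 0.85 and 1.13 throughout, while PPDK and mdh6 cross 0 when WT replicate 1 is left out, and mdh6 also without PP2CKO replicate 2.

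Ratios between genes within a library do not depend on how libraries are scaled against each other. Such a ratio carries the lengths of both genes, so only its difference between the lines is read. Of the 10 ratios among the 5 genes, 7 did not overlap between the lines, each with an exact two-sided permutation p of 0.1, before any adjustment for 10 comparisons. This stands against the 56.1% of all pairs of deeply counted features given above. The 10 ratios share genes and are not independent, and every ratio with Zm00001d044099 was among the 7. The log2 ratio of Zm00001d044099 to PPDK was -3.81, -3.35 and -3.28 in WT and -2.25, -2.14 and -2.22 in PP2CKO. It was 2.43-fold higher in PP2CKO on average, the widest gap of the 10. Relative to mdh6, Zm00001d044099 was 2.20-fold higher in PP2CKO, relative to pep1 1.72-fold, and relative to Zm00001d044096 1.63-fold, in each case with no overlap.

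Among the 3 enzymes after carbonic anhydrase, the ratios of pep1 to PPDK and to mdh6 did not overlap between the lines. Each had the smallest possible exact two-sided permutation p of 0.1. Such gaps were common, at 56.1% of all pairs of the 272 deeply counted features. The log2 ratio of pep1 to PPDK was -0.66, -0.83 and -0.68 in WT and -0.40, -0.22 and -0.04 in PP2CKO. Every PP2CKO library was above every WT library, by 1.41-fold on average. For WT replicate 1, where pep1 and PPDK were both high, this ratio lay close to that of WT replicate 3. The ratio of pep1 to mdh6 was 1.28-fold higher in PP2CKO, also without overlap, though its highest WT value of 3.27 (log2) and its lowest PP2CKO value of 3.29 nearly met. PPDK to mdh6 differed by -0.14 on the log2 scale and overlapped (exact permutation p = 0.2). The log2 ratio of PPDK to Zm00001d044096 was lower in PP2CKO by a difference of -0.57 without overlap, while pep1 to Zm00001d044096 (-0.07) and mdh6 to Zm00001d044096 (-0.43) overlapped. Without WT replicate 1 these differences were -0.28 for PPDK, 0.25 for pep1 and -0.18 for mdh6.

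**Figure D4:**
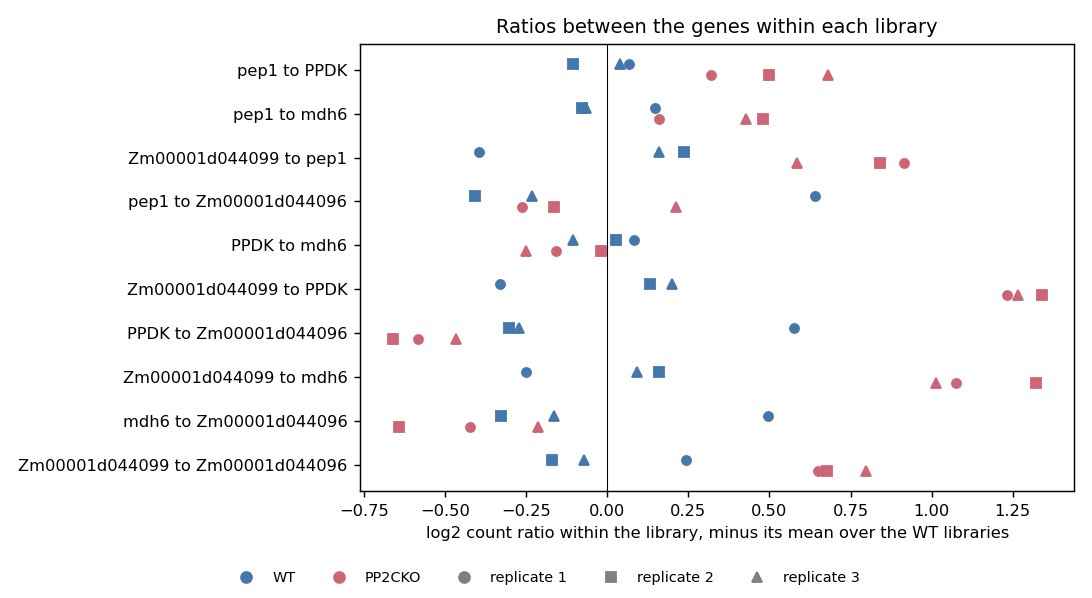
Log2 ratio of the counts of 2 genes within each library, minus its mean over the 3 WT libraries (horizontal axis), for the 10 pairs of the 5 genes. The PP2CKO libraries lie to the right of all WT libraries in the 4 ratios with Zm00001d044099 on top and in pep1 to PPDK and pep1 to mdh6, and to the left in PPDK to Zm00001d044096.

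Patterns over the 6 libraries were compared by centring each gene's log2 CPM on its own mean. The root mean square distance from the average of the 5, which includes each of them, was 0.15 (log2) for pep1, 0.20 for mdh6, 0.21 for Zm00001d044096, 0.27 for PPDK and 0.40 for Zm00001d044099. Among 11762 other features with a mean of at least 10 CPM, which have no part in that average, the median distance was 0.33. The features nearest to the average of the 5 were Zm00001d018197, at a distance of 0.037, and Zm00001d023929, at 0.039. Neither was called between the lines (log2 fold change 0.27 and 0.31, edgeR adjusted p = 0.414 and 0.315). Both identifiers come without a gene name in the files used here.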

How the data were processed

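Raw, unnormalized read counts for each gene were deposited by the authors in 1 table with a column for every library. Per the labels' protocols, reads were cleaned of adaptors and of low quality before alignment by STAR 2.4.0j to B73 v4. Which tool counted the reads, with which annotation and strand setting, is not given in the sources used here. KN5585 reads were aligned to another inbred line, so diverged genes may be undercounted in both lines alike.

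All 21206 features passing filterByExpr (minimum count 10, minimum total 15) were fitted with the quasi-likelihood test of edgeR 4.0.16 (R 4.3.3), genotype as the only term and TMM scaling, and p-values were adjusted over all of them. A call is an adjusted p below 0.05. Intervals of fold changes are 95% intervals of that fit. The log2 CPM used for patterns had a prior count of 2. Shares and ratios were tested by exact permutation over the 6 libraries (scipy 1.17.1), for which the smallest p is 0.1. Their p-values are given unadjusted. Counting errors do not include spread between libraries, and PCR reads without molecular identifiers are not independent molecules. Counts of the 5 genes ran from 4901 to 454797 per library. Alternatives were other scalings and filters, DESeq2 1.42.0, limma 3.58.1 (voom), a replicate block, thinning to the smallest total by binomial draws and leaving out each library. The edgeR procedure was tested on simulated data.

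The members and lists were chosen with earlier results of these data known. All 5 are named, plus the 2 features nearest in pattern. Enzyme names were assigned to the 5 identifiers for this work: the count table gives no names, and the RefSeq gene table used here (Zm-B73-REFERENCE-NAM-5.0) matched 0 of 43789 nuclear gene models. Coordinates, sequences and other genes of the C4 pathway, bundle sheath genes included, were therefore not used here.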

Additional observations from a re-analysis of the deposited data

How the results depend on the processing

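The call of Zm00001d044099 (log2 fold change 0.85 to 1.13, highest adjusted p 0.0335) and of the carbonic anhydrase pair summed (0.75 to 1.05, highest 0.0401) held in all 18 alternatives to the edgeR fit with TMM, and no other of the 5 genes was called in any. Without 1 library, log2 fold changes ran from 0.97 to 1.13 for Zm00001d044099, 0.88 to 1.05 for the pair, 0.06 to 0.55 for pep1, -0.43 to 0.02 for PPDK, -0.22 to 0.13 for mdh6 and 0.23 to 0.47 for Zm00001d044096. PPDK turned to 0.021 without WT replicate 1, and mdh6 to 0.13 without WT replicate 1 and 0.022 without PP2CKO replicate 2. For pep1, the log2 ratio of mean shares of counts was 0.038, and -0.066 without WT replicate 2, -0.074 without WT replicate 3 and -0.037 without PP2CKO replicate 3 (range -0.074 to 0.283). The difference in log2 ratio of pep1 to Zm00001d044096 turned from -0.071 to 0.249 without WT replicate 1 and to 0.025 without PP2CKO replicate 1 (range -0.275 to 0.249). Without WT replicate 1 the log2 ratio of PPDK to Zm00001d044096 differed by -0.283 in place of -0.571, and that of mdh6 to Zm00001d044096 by -0.180 in place of -0.427; the log2 ratio of mean shares was -0.252 in place of -0.454 for PPDK, -0.141 in place of -0.294 for mdh6 and 0.032 in place of 0.133 for Zm00001d044096. The cause was not tested.

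Calls over all features numbered 1092 higher and 442 lower. They were 679 and 1605 under library size alone; no filter gave 1672 and 781, library size without the 100 most abundant features gave 919 and 681, and DESeq2 1525 and 703. With any 1 library left out, between 339 and 1141 were higher and between 116 and 409 lower. Leaving out WT replicate 1 with library size alone, chosen after seeing the data, gave 315 and 681. The fits without a library have fewer libraries by construction, and otherwise the cause was not tested. A replicate block gave 1323 and 537 and changed no call among the 5 genes (adjusted p 0.231 for pep1, 0.220 for PPDK). Over all tested features, same-numbered libraries deviated together with low correlations of 0.0525, 0.0888 and 0.0847, though every library correlated best with its own number. These correlations do not settle whether the numbers mark pairs, and the main fit does not treat them as such. Counting error alone was at most 1.43% of the count for any of the 5 genes in any library.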
